A study of Homo sapiens with 22 samples.

Results

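The genes followed here encode the proteins of the mitochondrial ribosome, and their RNA was measured in Caco-2 cells (a line from a human colorectal adenocarcinoma). Members were taken by name, as every protein-coding gene whose symbol is MRPL or MRPS followed by digits and at most 1 letter. MRPL stands for the large subunit and MRPS for the small, though not every protein sits where its name says. The rule gave 78 of the 61487 genes counted, 49 MRPL and 29 MRPS, on 21 chromosomes. A 10% share of the medium was exchanged, over an exposure of 48 h, for phosphate-buffered saline (PBS, n = 4), for faecal water from mice before antibiotics (FWctl, n = 7), for faecal water of the same mice once oral antibiotics had depleted their gut bacteria (FWatb, n = 7), or for the antibiotics alone (ATB, n = 4). The ATB mix held meropenem at 0.25 g/L, neomycin at 1 g/L and vancomycin at 0.5 g/L. Faecal water is the soluble fraction of stool stirred into PBS, and the antibiotic left in FWatb was not measured here. Every culture, PBS included, was kept in medium with an antibiotic-antimycotic supplement, so no group was free of antibiotics. The study asked how soluble products of gut bacteria change the RNA of intestinal cells, and whether antibiotics alone do the same. FWctl replicate 1 was left out of the main tests and is described separately. The study removed 1 FWctl outlier without naming it, and this library was taken to be that outlier.

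Mitochondria carry their own ribosomes, which make the core subunits of the respiratory chain from the mRNAs of the mitochondrial genome. The ribosomal RNAs come from that genome, while the proteins are encoded in the nucleus, made in the cytosol and imported. Some of these proteins have relatives in the bacterial ribosome and others are found only in mitochondria. By a fixed list, 31 members counted as mitochondria-specific and 46 others, by default, as bacterial relatives. The list holds MRPS18A and MRPS18B, paralogues of a bacterial protein, and leaves out MRPL55, so the division is rough. The member in neither class, MRPS36, is now assigned to the 2-oxoglutarate dehydrogenase complex, although it keeps the ribosomal name. Because mitochondrial ribosomes descend from bacterial ones, some antibiotics that act on bacterial ribosomes also act on them, and neomycin binds the small ribosomal subunit of bacteria.

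Depth was between 7118302 and 18726967 counted read pairs per library. Members took 0.229 to 0.367% of the counts, and mitochondrial ribosomal RNA took 25.2 to 34.6%. Counts on cytosolic ribosomal RNA genes (rDNA) split the libraries in 2 sets, 14 with 1.87 to 8.19% and 8 with at most 0.080%; all FWatb libraries were in the high set and PBS, FWctl and ATB libraries were in both. Of 7 markers of intestinal epithelium all were tested, with a summed level of 2050 to 2360 CPM (counts per 1000000 after scaling between libraries) under PBS and 2330 to 2670 CPM under FWctl. Under FWatb their summed level was 2070 to 2870 CPM and under ATB 2150 to 2340 CPM. Of 10 markers of other cell types 6 were tested, with a summed level of 20.3 to 23.3 CPM under PBS, 9.18 to 12.7 CPM under FWctl, 21.4 to 27.6 CPM under FWatb and 23.0 to 30.0 CPM under ATB. PTPRC, COL1A2 and DCN never passed 2 counts. Under FWctl against PBS, COL1A1 (a collagen gene, mean 0.957 against 6.95 CPM), LYZ (3.61 against 9.06 CPM) and PECAM1 (2.38 against 4.97 CPM) were lower and VWF (3.43 against 0.858 CPM) was higher. Of the epithelial markers VIL1 and KRT8 were higher (0.38 and 0.43 on the log2 scale), KRT18 was lower (-0.28), and KRT20, a keratin of mature gut cells, was lower at 0.186 against 1.20 CPM. What part these moves had in the results for the members was not tested. In bulk RNA, fewer cells of a kind and less RNA per cell cannot be told apart. Nothing in the labels says that replicates were separate cultures, so the p-values measure only the spread between these samples.

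Nearly all members were expressed. Of the 78, 77 passed the filter on low counts and 67 had a mean above 10 CPM. The exception, MRPL53 on chromosome 2 (74471982 to 74472687, GRCh38), had at most 1 count in any library, and 499 of its 685 exon bases lie in exons of CCDC142 on the same strand. Per kb of exon, the highest mean levels were those of MRPS35 (70.6 CPM per kb), MRPL14 (55.4 CPM per kb) and MRPL11 (46.7 CPM per kb), the last a protein of the stalk base where elongation factors dock. MRPS24 (0.313 CPM per kb), MRPL38 (0.364 CPM per kb) and MRPL23 (0.617 CPM per kb) were lowest. MRPS24 and MRPL38 share 23.2% and 41.1% of their exon bases with another gene on the same strand, and reads that fit 2 genes may have been dropped in counting, so these levels are uncertain. In all, 40 members share exon bases with another gene, 16 on the same strand. Counts on the 79 annotated pseudogenes of the family came to 0.106 to 0.278% of the counts of the members.

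The stretch before the start is printed for 6 members, to set sequence beside response. They belong to members that were higher (MRPS10, MRPS18B, MRPL54) or lower (MRPL16, MRPS26, MRPL44) under FWctl than under PBS, and they were the 3 with the largest change in each direction among the 21 of 69 matched members whose 250 bases before the start held no annotated exon. Sequences are from RefSeq (GRCh38.p14), written 5′ to 3′ on the strand of the gene and ending at the base before its start. Capitals mark a searched motif, either CCGGAAG (the site of ETS factors such as GABPA) or CCAAT, each on either strand.
MRPS10 (chr6:42217862-42218111, minus strand): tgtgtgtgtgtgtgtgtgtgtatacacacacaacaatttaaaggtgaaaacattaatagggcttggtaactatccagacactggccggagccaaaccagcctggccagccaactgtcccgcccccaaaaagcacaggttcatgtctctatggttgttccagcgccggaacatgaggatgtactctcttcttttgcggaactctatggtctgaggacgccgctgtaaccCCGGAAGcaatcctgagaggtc
MRPS18B (chr6:30617590-30617839, plus strand): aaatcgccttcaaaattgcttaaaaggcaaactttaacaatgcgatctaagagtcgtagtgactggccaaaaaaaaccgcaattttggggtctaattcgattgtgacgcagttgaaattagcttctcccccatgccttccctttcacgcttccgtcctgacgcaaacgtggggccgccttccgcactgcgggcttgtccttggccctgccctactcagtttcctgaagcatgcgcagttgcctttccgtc
MRPL54 (chr19:3762432-3762681, plus strand): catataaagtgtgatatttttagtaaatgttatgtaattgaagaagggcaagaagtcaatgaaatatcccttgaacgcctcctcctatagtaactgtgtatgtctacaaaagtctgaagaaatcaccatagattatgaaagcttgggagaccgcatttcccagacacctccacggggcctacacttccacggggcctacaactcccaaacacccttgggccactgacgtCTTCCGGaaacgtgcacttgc
MRPL16 (chr11:59810779-59811028, minus strand): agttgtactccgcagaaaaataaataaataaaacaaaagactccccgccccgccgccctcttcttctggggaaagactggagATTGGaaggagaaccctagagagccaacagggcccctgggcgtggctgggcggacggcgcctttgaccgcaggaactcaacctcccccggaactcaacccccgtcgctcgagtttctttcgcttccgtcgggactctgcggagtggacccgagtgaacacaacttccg
MRPS26 (chr20:3045802-3046051, plus strand): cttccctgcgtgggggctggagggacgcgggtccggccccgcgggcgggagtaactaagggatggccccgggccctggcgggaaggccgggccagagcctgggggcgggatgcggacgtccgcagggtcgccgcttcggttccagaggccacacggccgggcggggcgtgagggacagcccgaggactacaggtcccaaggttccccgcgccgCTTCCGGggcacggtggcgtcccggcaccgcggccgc
MRPL44 (chr2:223957213-223957462, plus strand): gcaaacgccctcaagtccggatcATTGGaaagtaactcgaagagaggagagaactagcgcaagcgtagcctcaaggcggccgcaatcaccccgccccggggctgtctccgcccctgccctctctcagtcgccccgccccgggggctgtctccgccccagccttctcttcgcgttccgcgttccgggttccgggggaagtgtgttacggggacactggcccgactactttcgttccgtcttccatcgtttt
The ETS letters lie close to the start in MRPS10, MRPL54 and MRPS26, and MRPS18B holds none of the searched motifs in this stretch.

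Over windows of 300 bases (250 before to 50 after the start), 29 of 69 members held CCGGAAG on either strand, 42% against 14.4% of all 15339 promoters. The short YY1 site AANATGGCG was in 18 members (26.1%, against 4.9% of all promoters), and the full YY1 site, which can overlap it, was in 10 (14.5%, against 1.4%). For NRF1, an activator of nuclear genes for mitochondria, the strict palindromic site was in 1 member (1.45%, against 1.72%) and the site with any base at its centre in 8 (11.6%, against 8.61%). CCAAT was in 29% of members and 36.6% of all promoters, CACGTG (the E-box of MYC) in 8.7% and 8.89%, and TGACGTCA (CRE) in 0% and 2.64%. Read by response, CCGGAAG was in 18 of the 38 matched members that were higher under FWctl and in 4 of the 10 that were lower, and AANATGGCG was in 10 and 0. These are counts of letters in a window and say nothing of whether a factor was bound.

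FWctl changed most of the family, mainly upward but not as 1 block. Against PBS, 40 of the 77 tested members were higher and 13 were lower at an adjusted p under 0.05 (edgeR's quasi-likelihood F test, p-values adjusted after Benjamini and Hochberg across the 20373 genes that passed the filter), or 51.9% and 16.9%. Over all genes tested, 46.4% were called in this comparison, 24.3% higher and 22.1% lower. The median log2 fold change was 0.25 over members and 0.02 over all genes, and only MRPS10 and MRPL15 moved by more than 1 on the log2 scale. Summed over members, the level was 3460 ± 198 CPM under FWctl (SD, n = 6) and 2900 ± 180 CPM under PBS (SD, n = 4). For 31 members every FWctl library was above every PBS library and for 9 every one was below, against 17.8% and 15.8% of all genes.

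**Figure D1:**
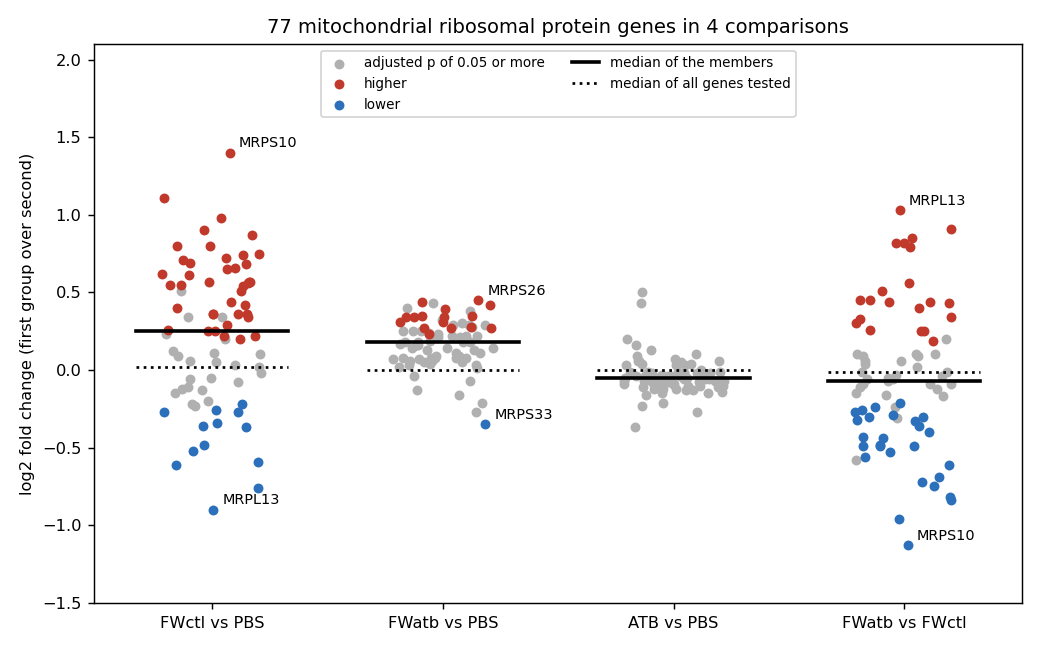
Log2 fold change of each of the 77 tested members in the 4 comparisons; red points were called higher, blue points lower and grey points not called, the solid line is the median of the members and the dotted line that of all genes tested. FWctl against PBS runs from -0.90 to 1.4 with a median of 0.25, while ATB against PBS holds no coloured point.

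MRPS10, a protein of the small subunit head (chromosome 6, 42206807 to 42217861, minus strand), was the member that rose most. Its level under PBS was 40.8, 37.1, 48.7 and 45.5 CPM, and under FWctl it ran from 105 to 125 CPM with a median of 112 CPM. The lowest FWctl library was far above the highest PBS library. The log2 fold change was 1.4 (SE 0.08, adjusted p = 5.68e-18, edgeR), and an exact two-sided permutation test gave p = 0.00952, the smallest that 6 against 4 libraries allow. The exact test was run only on members with the largest changes, and its p-value is not adjusted for that choice. The promoter of MRPS10 above is 1 of those with the ETS letters.

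MRPL15, a bacterial relative in the large subunit, stood at 24.0, 21.2, 22.5 and 24.8 CPM under PBS. With FWctl it ran from 41.4 to 55.8 CPM (median 51.7 CPM), with no overlap, a log2 fold change of 1.11 (SE 0.10, adjusted p = 5.35e-12, edgeR). MRPL24 (chromosome 1, 156737303 to 156741590) sits at the rim of the tunnel through which the new chain leaves. Its PBS levels were 23.4, 18.6, 25.0 and 22 CPM, and the FWctl libraries lay above all of them, from 39.2 to 52.5 CPM (median 43.5 CPM). The change was 0.98 on the log2 scale (SE 0.10, adjusted p = 4.76e-11, edgeR).

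MRPS18B is 1 of 3 human paralogues of bacterial protein bS18, and was listed here in the small subunit, whereas MRPS18A was listed in the large. Under PBS it had 57.6, 63.3, 68.8 and 70.8 CPM, and under FWctl 110 to 133 CPM (median 118 CPM), again without overlap (log2 fold change 0.87, SE 0.08, adjusted p = 1.73e-11, edgeR). MRPS18A rose as well, by 0.65 (SE 0.10, adjusted p = 6.98e-07), whereas MRPS18C had 0.06 and was not called. MRPS24, with a log2 fold change between those of MRPL24 and MRPS18B, had 0.90 (SE 0.36, adjusted p = 0.0367), but at a mean of 1.09 CPM against 0.584 CPM it rested on few counts, and the call was lost when PBS replicate 2, 3 or 4 or FWctl replicate 3, 6 or 8 was left out (adjusted p up to 0.148).

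A run of mitochondria-specific proteins followed close behind. MRPL52 had 18.5, 21.9, 23.6 and 21.5 CPM under PBS and 34.3 to 43.1 CPM under FWctl (median 35.9 CPM; log2 fold change 0.80, SE 0.09). MRPL57 had 49.2, 42.8, 57.1 and 50.6 CPM under PBS and 81.8 to 95 CPM under FWctl (median 86.3 CPM; 0.80, SE 0.09). MRPL48 had 32.7, 37.2, 41.8 and 40.4 CPM under PBS and 58.3 to 76.1 CPM under FWctl (median 61.5 CPM; 0.74, SE 0.09). In all 3 the lowest FWctl library stood above the highest PBS library, and under FWatb they were at 23.9 to 26.1, 45.1 to 65.3 and 35.7 to 42.7 CPM. MRPS35, the member with the most counts per kb, went from 103, 99.2, 126 and 115 CPM to 169 to 211 CPM (median 180 CPM; 0.72, SE 0.09, adjusted p = 4.17e-09). Of the bacterial relatives, MRPS9, from the small subunit head, had 24.5, 23.4, 24.9 and 27 CPM under PBS and 38.8 to 42.7 CPM under FWctl (median 41.3 CPM; 0.71, SE 0.08, adjusted p = 2.43e-09). MRPL32, whose maturation needs a protease of the inner membrane, had 38.2, 42.6, 49.1 and 46.8 CPM under PBS and 58.1 to 70.5 CPM under FWctl (median 65.4 CPM; 0.55, SE 0.08). Neither gene overlapped between the groups.

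A smaller group went down. MRPL13, a bacterial relative of the large subunit, had 39.9, 39.7, 48.2 and 47.0 CPM under PBS. Its FWctl libraries lay between 21.4 and 27.8 CPM with a median of 22.2 CPM, all below PBS. The log2 fold change was -0.90 (SE 0.10, adjusted p = 7.65e-10, edgeR; exact two-sided permutation p = 0.00952, the smallest possible). MRPS5 (chromosome 2, 95085369 to 95122006), near the mRNA entry of the small subunit, was very even under PBS at 59.4, 57.1, 60.6 and 60.4 CPM, and under FWctl ran from 31.4 to 41.1 CPM with a median of 33.7 CPM. It fell by 0.76 on the log2 scale (SE 0.08, adjusted p = 7.27e-11, edgeR).

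MRPS2 (chromosome 9, 135499984 to 135504673) had 19.2, 16.6, 15.9 and 18.2 CPM under PBS and 10.5 to 12.3 CPM under FWctl, with a median of 11.2 CPM. The log2 fold change was -0.61 (SE 0.12, adjusted p = 3.83e-05, edgeR). For MRPL16 (chromosome 11, 59806140 to 59810778), which lies by the path of the tRNAs, PBS libraries had 26.1, 28.6, 27.7 and 32.0 CPM and FWctl libraries 15.0 to 24.5 CPM (median 19.0 CPM), a change of -0.59 (SE 0.11, adjusted p = 9.07e-06). MRPS25, a mitochondria-specific protein, had 22.8, 22.5, 22 and 23.6 CPM under PBS and 14.2 to 17.6 CPM under FWctl (median 15.9 CPM), a change of -0.52 (SE 0.09, adjusted p = 6.4e-06). None of these 5 members overlapped between the groups. MRPL33, MRPS26, MRPS36 and MRPS22 were lower with no overlap too (log2 fold changes from -0.48 to -0.34). MRPS22, a mitochondria-specific protein, had 57.8, 51.3, 61.7 and 57.5 CPM under PBS and 43.3 to 47.8 CPM under FWctl (median 44.9 CPM). MRPL10, MRPL44, MRPL17 and MRPS27 were lower with overlapping groups (-0.27 to -0.22).

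**Figure D2:**
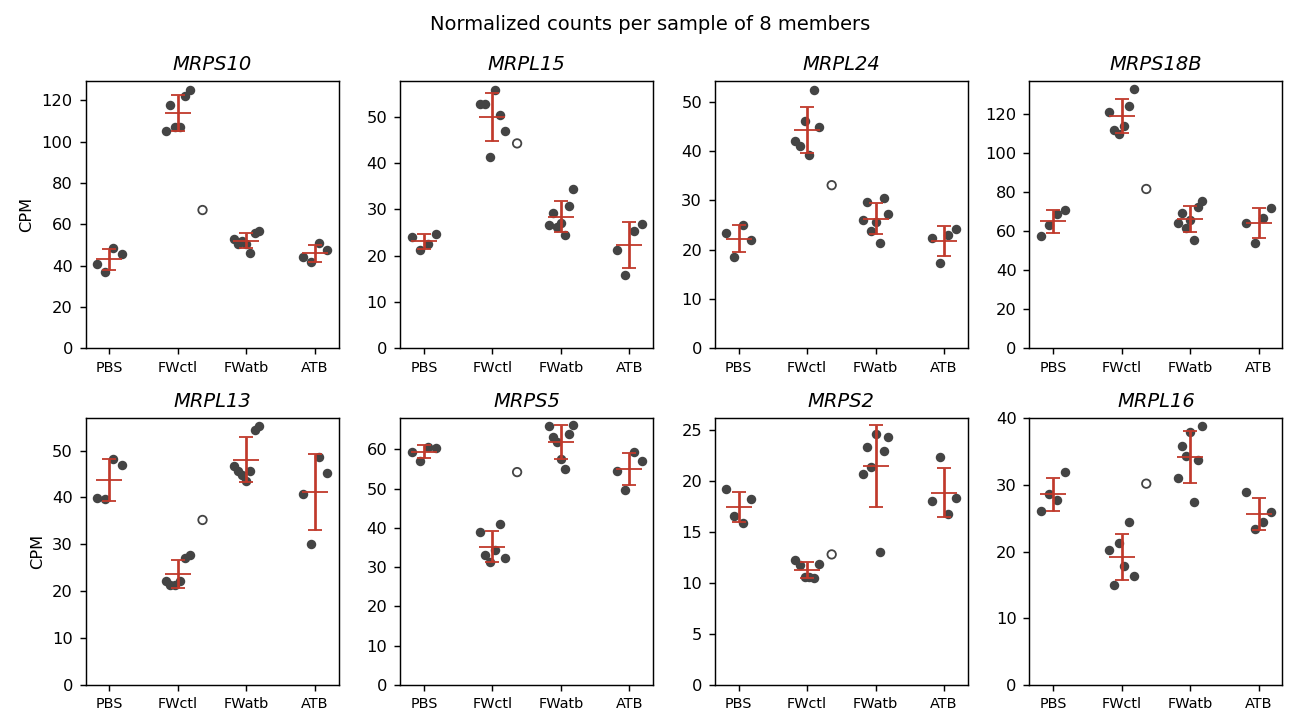
Level (CPM) of 8 members in every library of the 4 groups, with the mean and SD in red and FWctl replicate 1 as an open circle left out of them. MRPS10 sits between 105 and 125 CPM in the FWctl libraries and at 56.6 CPM or less in all libraries of the other groups, and MRPL13 shows the opposite order.

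By symbol, 21 of 48 tested MRPL genes were higher and 6 lower, and 19 of 29 MRPS genes were higher and 7 lower. These are not counts by subunit, because MRPS30 and MRPS18A, both higher, were listed in the large subunit. MRPS36, which was lower, was listed in neither. Of the members counted as bacterial relatives, 24 of 46 were higher and 7 lower (median log2 fold change 0.23). Of those counted as mitochondria-specific, MRPS18A and MRPS18B among them, 16 of 30 were higher and 5 lower (median 0.39). By the lists used, these were 10 and 1 of 20 in the large subunit and 6 and 4 of 10 in the small. Whether these shares differ was not tested.

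By place in the ribosome, 4 of the 5 proteins around the exit tunnel were higher: MRPL24, MRPL22 (log2 fold change 0.57), MRPL47 (0.51) and MRPL45 (0.36), the last of which ties the ribosome to the inner membrane. The remaining 1, MRPL23, had -0.20 and was not called, on few counts (mean 2.13 CPM under PBS). In the list of the decoding centre and small subunit core the 5 members were split. MRPS11 (0.57), MRPS7 (0.25) and MRPS12 (0.22) were higher, and MRPS5 and MRPS2 were lower. The call for MRPS7 was lost without PBS replicate 1 or 2 or FWctl replicate 3 or 7 (adjusted p up to 0.221), and that for MRPS12 without PBS replicate 1, 2 or 3 or FWctl replicate 3, 4, 6, 7 or 8 (up to 0.484). In the stalk list of 3, MRPL10 was lower (-0.27, SE 0.08, adjusted p = 0.00415, edgeR), but was not called within the high-rDNA libraries. The others were not called, MRPL12 on few counts (mean 1.46 CPM under PBS). MRPS30, which carries a small-subunit name but sits in the large subunit, had 102, 99.8, 92.9 and 93.1 CPM under PBS and 124 to 159 CPM under FWctl (median 141 CPM), a rise of 0.56 (SE 0.07, adjusted p = 2.07e-08). MRPL58, a peptidyl-tRNA hydrolase built into the large subunit, rose by 0.62 (SE 0.13, adjusted p = 9.39e-05). MRPL41 had -0.23 and missed the threshold (adjusted p = 0.0539). MRPS6, which shares exon bases with SLC5A3, had 0.36 (SE 0.14, adjusted p = 0.0362), a call lost without PBS replicate 1 or 3 or FWctl replicate 3, 4 or 8 (adjusted p up to 0.368).

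The 24 tested members that were not called under FWctl had log2 fold changes from -0.23 to 0.51. They included the stalk proteins MRPL11 and MRPL12, and the bacterial relatives MRPL2 and MRPL4. MRPL12 and MRPL2 had few counts (means of 1.46 and 2.87 CPM under PBS) and share exon bases with another gene, so a change in them could be missed. Of these 24, 3 (MRPL1, MRPL3 and MRPL4) were higher under FWatb than PBS and 10 were higher under FWatb than FWctl, while none was lower in either comparison. In all, 14 members were called in none of the 4 comparisons, MRPL9, MRPL34, MRPL42 and MRPS21 among them.

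Members were also split by whether they share exons with other genes. Over the 38 tested members that share no exon base with another gene, 25 were higher and 6 lower, with a median log2 fold change of 0.49. Over the 39 that share some, 15 were higher and 7 lower, with a median of 0.12. Under FWatb against PBS the medians were 0.19 and 0.18, and for FWatb against FWctl they were -0.28 and -0.01. The difference between the 2 sets was not tested. What part reads of the neighbouring genes had in that gap was not tested, and whether counting used the strand of the reads is not given in the sources used here.

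Leaving out any 1 library kept the number of members called between 46 and 53, and the median between 0.19 and 0.30. With all 22 samples, FWctl replicate 1 included, 38 members were higher and 11 lower, with a median of 0.24. Within the high-rDNA libraries 34 members were higher and 9 lower, within the low-rDNA libraries 28 were higher and 17 lower, and with the set as a term in the model 41 were higher and 13 lower.

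Under FWatb fewer members were called against PBS, and nearly all of those were higher. Against the same PBS libraries, 16 members were higher and 1 was lower, beside 9.99% of all genes tested called in this comparison (6.04% higher, 3.95% lower). The log2 fold change was above 0 in 70 of the 77 tested members, with a median of 0.18 (0.00 over all genes) and a range from -0.35 to 0.45. Summed over members the level was 3240 ± 232 CPM (SD, n = 7), which overlapped the range under PBS. For 7 members the FWatb libraries were all above PBS and for none all below, where 6.86% of all genes did not overlap (3.94% above, 2.93% below).

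MRPS26, a mitochondria-specific protein of the small subunit (chromosome 20, 3046052 to 3048250), was the highest of these. Its PBS level was 41.7, 38.9, 41.7 and 40.9 CPM, and under FWatb it ran from 43.9 to 66.6 CPM with a median of 57.8 CPM. All FWatb libraries were above all PBS libraries (log2 fold change 0.45, SE 0.09, adjusted p = 0.000903, edgeR; exact two-sided permutation p = 0.00606, the smallest possible with 7 against 4). Under FWctl the same gene was lower than PBS, at 29.5 to 37.7 CPM (median 30.5 CPM; -0.37, SE 0.10, adjusted p = 0.00143).

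MRPL3, whose mutation causes a cardiomyopathy with loss of respiratory chain activity (chromosome 3, 131462212 to 131502983), had 98.9, 95, 104 and 101 CPM under PBS and 110 to 152 CPM under FWatb (median 138 CPM). The groups did not overlap, and the change was 0.44 (SE 0.08, adjusted p = 0.000151, edgeR). Under FWctl, MRPL3 had 95 to 123 CPM, overlapped PBS and was not called. MRPL21 (0.42, SE 0.09, adjusted p = 0.00147), MRPL58 (0.39, SE 0.13, adjusted p = 0.0431) and MRPL47 (0.35, SE 0.09, adjusted p = 0.00487) followed, all 3 higher under FWctl too; the call of MRPL58 was lost without PBS replicate 1, 2 or 3 or FWatb replicate 2, 4, 7 or 8 (adjusted p up to 0.232) and that of MRPL47 without PBS replicate 2 (0.0681).

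MRPS33 was the single member lower under FWatb. It had 18.7, 17.8, 23.9 and 22.9 CPM under PBS, 15.8 to 17.9 CPM under FWatb (median 16.0 CPM) and 25.0 to 36.3 CPM under FWctl (median 32.8 CPM). FWctl libraries were thus all above PBS (0.61, SE 0.11, adjusted p = 1.2e-05), while FWatb libraries touched the lowest PBS library (-0.35, SE 0.11, adjusted p = 0.0316, edgeR; exact two-sided permutation p = 0.0121). MRPS33, in 1 direction, and MRPS25 and MRPS26, in the other, were the members called in opposite directions against PBS by the 2 faecal waters, and the FWatb call of MRPS25 (0.27, SE 0.08, adjusted p = 0.0322) was lost without any 1 of the PBS libraries or FWatb replicate 1, 2, 3, 4 or 8 (adjusted p up to 0.114).

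These small changes depended on single libraries. The 17 calls became 4 without PBS replicate 2, 11 without PBS replicate 1 or PBS replicate 4, 10 without FWatb replicate 1, 3, 4 or 8, and 26 without FWatb replicate 6, and MRPS33 was not called without PBS replicate 3 or 4 or FWatb replicate 1, 3 or 4 (adjusted p up to 0.171). The non-overlapping members became 25 without FWatb replicate 6, 16 without PBS replicate 3 and 12 without PBS replicate 4. Leaving a library out can only add genes without overlap, and the share over all genes was not computed for these settings. Scaling by library size alone called 38 members higher and none lower, but it also moved the median of all genes from 0.00 to 0.08. Within the high-rDNA libraries, where all FWatb samples but only 2 PBS samples lie, 15 members were higher and none lower.

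**Figure D3:**
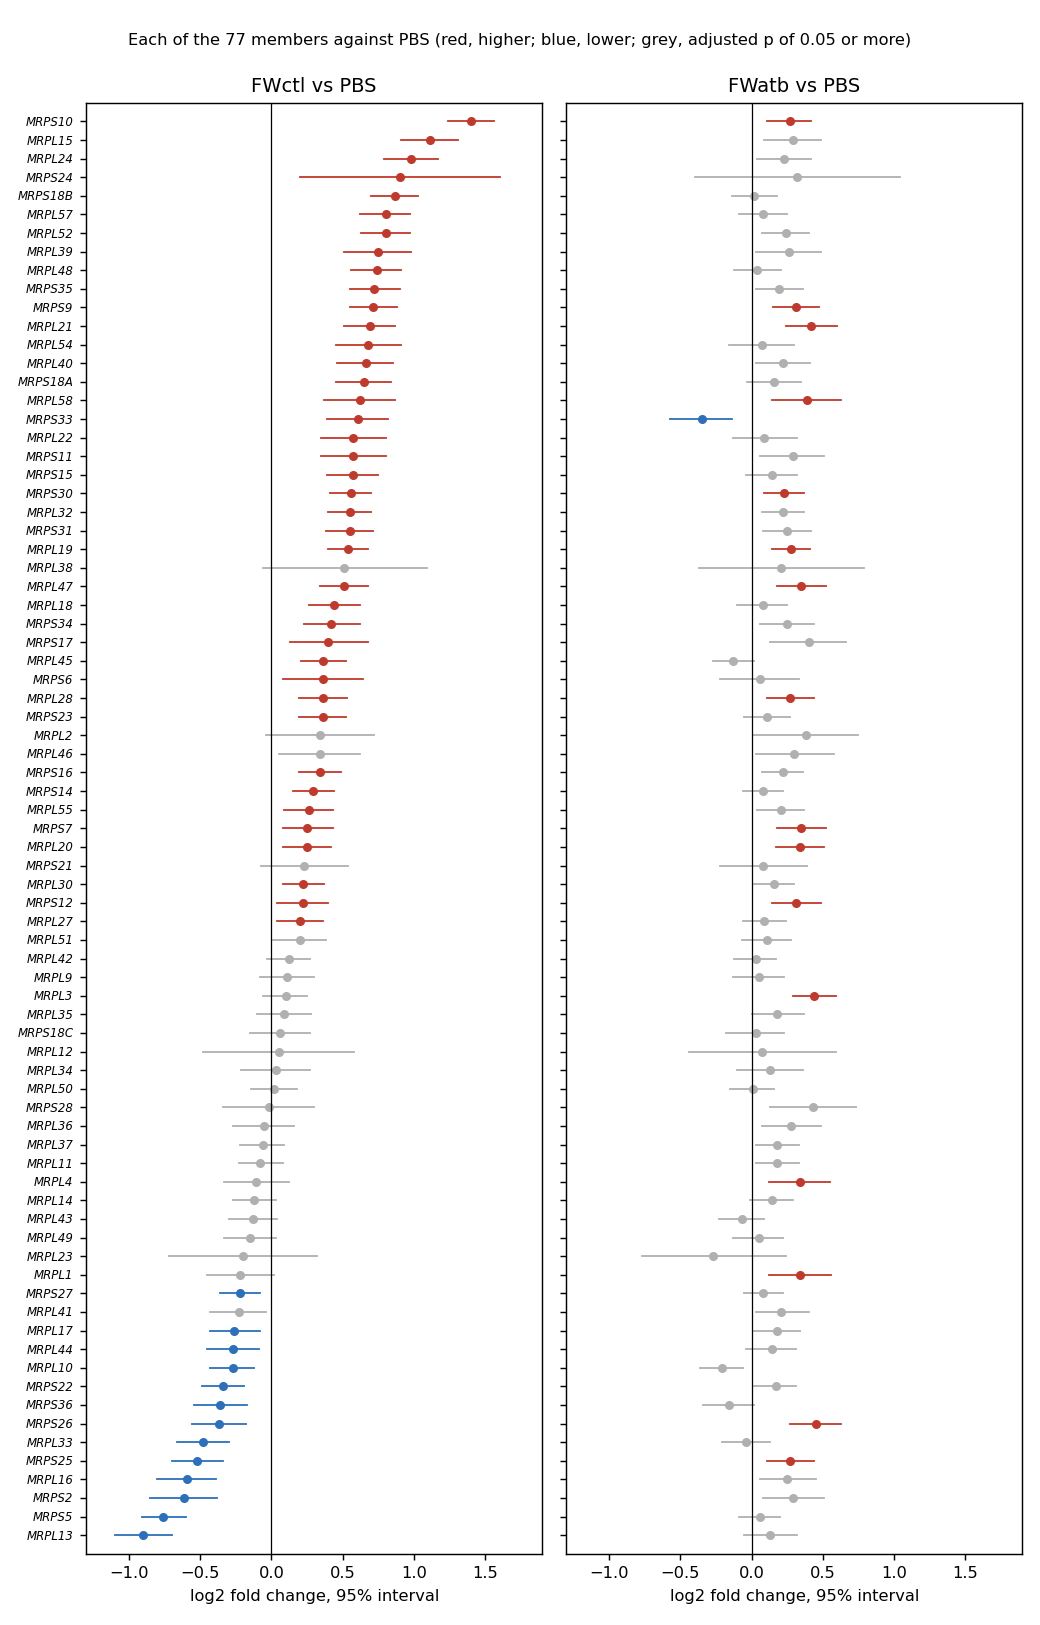
Log2 fold change with its 95% interval for each of the 77 tested members, FWctl against PBS on the left (sorted) and FWatb against PBS on the right in the same order. The left panel spans -0.90 to 1.4 and the right panel -0.35 to 0.45; both use the same PBS libraries.

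The antibiotics themselves left no member past the test. Under ATB 0 of 77 members were called by edgeR and 0 by DESeq2, beside 0.285% of all genes tested (0.255% higher, 0.0295% lower), and 3 had an unadjusted p under 0.05. The median log2 fold change was -0.05, the range -0.37 (MRPL12, 95% interval -0.96 to 0.22) to 0.50 (MRPS24, 95% interval -0.26 to 1.27), and both ends are genes of few counts. MRPS10 had 44.1, 41.5, 50.8 and 47.5 CPM under ATB, where replicate 3 lay above all PBS libraries and the others lay among them, with a log2 fold change of 0.10 (95% interval -0.07 to 0.27). MRPL13 had 40.8, 30.0, 48.6 and 45.2 CPM and a change of -0.07 (95% interval -0.28 to 0.14). For these 2 genes the intervals leave out a change of the size seen under FWctl. Summed over members, the level was 2800 ± 214 CPM (SD, n = 4). ATB replicate 2 stood apart in its group, with the fewest counts of all libraries, 8.19% of them on rDNA, and the lowest summed level of the members (2500 CPM, against 2780 to 2960 CPM in the others). Without it 0 members were called and the median was -0.02. For 1 member all ATB libraries were above PBS, where 5.58% of all genes did not overlap (3.57% above, 2.01% below).

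Between the 2 faecal waters, which came from the same mice, the family taken whole split nearly evenly. With FWatb set against FWctl, 21 members were higher and 27 lower, beside 48.8% of all genes tested called in this comparison (23.4% higher, 25.4% lower). The median log2 fold change was -0.07 (-0.01 over all genes) under the main scaling and 0.04 (0.09 over all genes) with library size alone, so the sign of the median turned with the scaling while it stayed below that of all genes. Without overlap, 10 members were higher and 20 lower, against 12.2% and 13.3% of all genes. With the mouse as a block the counts were 22 and 26. The near-even split did not hold in the 38 tested members that share no exon base with another gene. Of these, 8 were higher and 21 lower (median -0.28). Of the 39 that share some, 13 were higher and 6 lower (median -0.01). The difference between these 2 sets was not tested.

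MRPS10 ran from 46.0 to 56.6 CPM under FWatb (median 52.0 CPM), far below its FWctl levels and lower in all 6 pairs of same-numbered samples. The log2 fold change was -1.13 (SE 0.07, adjusted p = 1.05e-17, edgeR), with p = 0.00117 by an exact two-sided permutation test and p = 0.0312 by exact paired sign flips, each the smallest possible. MRPL13 showed the reverse, with 43.6 to 55.3 CPM under FWatb (median 45.7 CPM), higher in 6 of 6 pairs. Its change was 1.03 (SE 0.09, adjusted p = 1.03e-12, edgeR; the exact p-values were the same 0.00117 and 0.0312). Over all genes, 12.7% were called with an absolute log2 fold change above 1, and MRPS10 and MRPL13 were the 2 members among them.

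MRPS33 (-0.96, SE 0.10), MRPS18B (-0.84, SE 0.07), MRPL15 (-0.82, SE 0.09) and MRPL24 (-0.75, SE 0.08) were the next lowest, each lower in all 6 pairs. Under FWatb, MRPL15 had 24.5 to 34.4 CPM, MRPL24 had 21.4 to 30.4 CPM and MRPS18B had 55.3 to 75.3 CPM, and all 3 lay wholly below their FWctl libraries. On the other side stood MRPS2 (0.91, SE 0.11), MRPL16 (0.85, SE 0.09), MRPS26 (0.82, SE 0.08), MRPS5 (0.82, SE 0.07) and MRPS25 (0.79, SE 0.08), higher in all 6 pairs. MRPS5 had 54.9 to 66.3 CPM under FWatb, MRPS2 had 13.0 to 24.6 CPM and MRPL16 had 27.5 to 38.9 CPM, in each case above every FWctl library. Being higher or lower in all 6 pairs held for 20.7% and 22% of all genes tested. MRPS11 was lower (-0.29, SE 0.10), a call lost without FWctl replicate 3, 4 or 7 or FWatb replicate 6 (adjusted p up to 0.117). MRPS6 was called lower (-0.30, SE 0.12) but was so in 3 of 6 pairs only, and the call was lost without FWctl replicate 3, 4 or 8 or any FWatb library but replicate 7 (adjusted p up to 0.52), and with the mouse as a block (-0.22, adjusted p = 0.054, edgeR).

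FWctl replicate 1, shown apart, lay within the range of the other FWctl libraries for 41 of 77 members, of FWatb for 41 and of PBS for 20, ranges that can overlap. For MRPS10 it had 66.9 CPM, between FWctl and the rest, for MRPL13 35.2 CPM, and for MRPS5 54.2 CPM, near PBS. Of the 40 members higher under FWctl than PBS it lay within the range of the other FWctl libraries for 21, of FWatb for 17 and of PBS for 5. Of the 13 lower members it lay within the FWctl range for 4, the FWatb range for 6 and the PBS range for 4.

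Many of these genes share a start region with a neighbour read in the other direction. Among the 78, 17 (21.8%) had a protein-coding gene on the other strand starting within 1000 bases, against 8.52% of 19967 protein-coding genes. Partners did not always move together. MRPL47 and NDUFB5, a subunit of respiratory complex I, start 41 bases apart and were both higher under FWctl than PBS (0.51 and 0.58). MRPL57 and SKA3, which start 106 bases apart, were both higher too (0.80 and 0.32). So were MRPL54 and APBA3 (0.68 each), but their starts lie 990 bases apart, near the limit of the window. In contrast, MRPL52 was higher and SLC7A7, an amino acid transporter subunit, lower (0.80 and -0.46), and MRPL27 was higher while EME1, 13 bases away, was lower (0.20 and -0.37). MRPL18 and TCP1, a subunit of the cytosolic chaperonin, differed between the faecal waters, with MRPL18 lower (-0.36) and TCP1 higher (0.44) under FWatb than FWctl. MRPL46 and MRPS11 are members that face each other across 63 bases, and of these only MRPS11 was called under FWctl (0.57, against 0.34 for MRPL46); the difference between them was not tested.

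The other genes of mitochondrial gene expression were called in both directions under FWctl, with shares that differed from list to list. Of 8 lists with 106 tested genes that serve this pathway, those mRNAs included, 54 genes were higher and 22 lower under FWctl than PBS, 31 and 2 under FWatb, and 0 under ATB. The shares over all genes were 24.3% higher and 22.1% lower under FWctl, and 6.04% and 3.95% under FWatb. For the factors of mitochondrial translation 12 of 18 were higher and none lower (median log2 fold change 0.45), among them GFM1, the elongation factor that moves the ribosome along (0.73, SE 0.08, adjusted p = 3.58e-10), and SLIRP, a partner of LRPPRC in holding mitochondrial mRNAs (1.20, SE 0.10, adjusted p = 1.69e-13). Of the 5 genes of mitochondrial transcription 4 were higher (median 0.52), with TFB2M at 1.08, the polymerase POLRMT at 0.92 and the packaging factor TFAM at 0.52. Both SLIRP and TFB2M were lower under FWatb than FWctl (-0.87 and -0.69). Against PBS, 5 of the 18 translation factors were higher under FWatb and none lower. The largest log2 fold change among the 18 in that comparison was 1.32. The FWatb count of the 8 lists was 20 and 1 without PBS replicate 1 and 19 and 0 without PBS replicate 2.

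Assembly factors for the mitochondrial ribosome followed with 15 of 28 higher and 4 lower (median 0.34). The methyltransferase MRM1 rose from a mean of 4.14 CPM under PBS to 8.47 CPM under FWctl (log2 fold change 1.02, SE 0.14, adjusted p = 7.22e-08), and NGRN from 11.8 to 22.3 CPM (0.91, SE 0.11). The GTPase NOA1 (-0.85) and MALSU1 (-0.40), a factor that keeps the subunits apart until they are finished, were lower. Of the 5 mitochondrial ribosomal proteins with other symbols, AURKAIP1 (0.34), GADD45GIP1 (0.46) and PTCD3 (0.21) were higher and DAP3 (-0.45) and CHCHD1 (-0.43) lower. The aminoacyl-tRNA synthetases of mitochondria gave 10 higher and 2 lower of 19.

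Mitochondrial chaperones and proteases were split, 4 higher and 3 lower of 10. The protease LONP1 went from a mean of 38.9 CPM under PBS to 111 CPM under FWctl and 55.8 CPM under FWatb (1.52, SE 0.09, adjusted p = 1.6e-17 for FWctl). TRAP1, a chaperone, went the other way under FWctl, from 48.3 to 31.5 CPM (-0.62, SE 0.09), and up under FWatb, to 65.2 CPM (0.43, SE 0.09, adjusted p = 0.00088). Among 8 regulators of mitochondrial biogenesis 6 were higher and 1 lower under FWctl. MYC, a growth regulator, was higher under both waters (0.57 and 0.96), ESRRA under FWctl (0.61, against -0.10 and uncalled under FWatb), and PPARGC1B was lower under FWctl (-0.29) and higher under FWatb (0.60).

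The 13 mRNAs of the mitochondrial genome, which these ribosomes translate, were lower under FWctl in 10 cases and higher in none, with a median log2 fold change of -0.65. MT-CO1, the core of cytochrome oxidase, had a mean of 3220 CPM under PBS and 1780 CPM under FWctl (-0.86, SE 0.10, adjusted p = 6.79e-10), and 2500 CPM under FWatb (-0.37, SE 0.09, adjusted p = 0.00765; 0.053 at most when PBS replicate 1 or 2 was left out). MT-CO2 (-0.89) and MT-ATP6 (-0.90) changed alike under FWctl. The nuclear genes of the respiratory chain gave 16 higher and 38 lower of 76 under FWctl (median -0.24). The cytosolic ribosomal proteins, the counterpart of the members outside mitochondria, gave 56 higher and 3 lower of 85 under FWctl (median 0.33), 2 higher and 4 lower under FWatb (median -0.14), and 1 higher and 72 lower for FWatb against FWctl (median -0.47), where the members gave 21 and 27.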

How the data were processed

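Total RNA depleted of ribosomal RNA was sequenced as stranded paired reads of 22 Caco-2 samples. The deposited table holds raw counts per gene, which the authors made with Trimmomatic 0.38, HISAT2 2.1.0 and featureCounts (Subread 2.0.0) on GRCh38; the strand setting and the treatment of reads that fit several genes are not given in the sources used here. The 20373 genes counted more than 5 times in 3 or more samples were tested with edgeR 4.0.16 in R 4.3.3: TMM scaling, 1 quasi-likelihood model of the 4 groups on 21 samples, Benjamini-Hochberg adjustment over all genes tested, called at an adjusted p under 0.05. SE is the absolute log2 fold change over the square root of F, and intervals are 1.96 SE to either side. CPM are edgeR's library-scaled counts after TMM. For the exact tests, 0.5 CPM was added before the logarithm. They were run only on the called members with the highest and the lowest change in each comparison that had calls. Their p-values are not adjusted for that choice. All comparisons with PBS share its 4 libraries. The tests were tried on simulated data first. Members and lists were chosen with earlier results of these data known. Members named in the text are the 5 called with the highest and the 5 with the lowest change in each comparison. The 3 highest and lowest per kb and members of fixed structural lists are named too. From each other list, the rule picked the 2 called genes at either end, and only some of these are named. Further genes were picked after their values were seen. Genes sharing exons, windows and head-to-head pairs come from GENCODE 44. That same-numbered FWctl and FWatb samples came from 1 mouse is inferred from the labels and the methods of the study; over 6 pairs their deviations from the group means correlated by 0.068 on average (-0.004 to 0.19), against -0.011 for unlike numbers. DESeq2 1.42.0, other scalings and filters, the replicate block, the rDNA sets and leaving out each library were alternatives. All replicate pairs differed beyond sampling noise (chi-square over its degrees of freedom 3.65 to 121.79 over 54 pairs); the 3 pairs with ATB replicate 2 gave 111.57 to 121.79 and the other ATB pairs 3.65 to 4.64. Depth was 7118302 to 18726967 counts, so a member with few counts has a wide interval.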

Additional observations from a re-analysis of the deposited data

Results flagged for a closer look

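In 4 of the 140 groups of 4 to 7 libraries examined among the named members, 1 library stood apart from the rest of its group by Dixon's criterion, where chance alone would give about 7 (1 in 20). MRPL10 had 85.8 CPM in PBS replicate 1 and 98.6 to 101 CPM in the other PBS libraries. For MRPL23, FWatb replicate 1 had 3.3 CPM and the others 0.856 to 1.86 CPM. MRPS2 had 13.0 CPM in FWatb replicate 6, against 20.7 to 24.6 CPM in the remaining FWatb libraries. MRPS26 had 37.7 CPM in FWctl replicate 7 and 29.5 to 31.3 CPM in the others. MRPS2 and MRPS26 kept their calls in the comparisons above when that library was left out.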

How the results depend on the processing

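Among members, the FWatb against PBS count of 17 was the least stable: 9 with all 22 samples, 38 with library size alone, 8 of 38 without members that share exons, 10 higher and 2 lower with upper-quartile scaling, and 4 to 26 with 1 library left out; non-overlapping members numbered 23 with library size alone, 33 in the high-rDNA libraries, which hold 2 PBS samples, and 7 to 25 with 1 library left out. For FWctl against PBS, leaving out members that share exons gave 31 calls of 38 and a median of 0.49. For FWatb against FWctl it gave 29 calls and a median of -0.28, library size alone turned the median to 0.04 with 26 higher and 21 lower (35 and 23 in the pathway lists, against 26 and 31), and asking for an absolute log2 fold change above 1 left 2 calls. Non-overlapping members under ATB were 2 with upper-quartile scaling and 1 to 5 with 1 library left out. For these counts of non-overlapping members, in FWatb and ATB, the share over all genes was not computed. The pathway lists under FWatb against PBS had 19 to 40 calls with 1 library left out, 21 without PBS replicate 1 and 19 without PBS replicate 2. The causes were not tested.

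With the replicate number as a block the members called were 46 (FWctl against PBS), 24 (FWatb against PBS), 0 (ATB against PBS) and 48 (FWatb against FWctl), and the pathway lists under ATB had 1 call instead of 0; PBS and ATB share only a number with the other groups, so nothing is read from their pairing. For the genes that the naming rule picked, which leave out other members given with values, no called value changed direction: over the alternatives, 50 of 571 values of named members lost their call for FWctl against PBS, 59 of 242 for FWatb against PBS and 26 of 552 for FWatb against FWctl, and 6 of 549, 10 of 330 and 8 of 600 for genes of the lists. Counted over the longest or canonical transcript, 3 of the 6 members at the ends of the order per kb stayed there. MRPL53 could not be tested, and members near 1 CPM (MRPL12, MRPS24, MRPL23, MRPL38) limit what depth can show.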

Other observations

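Across the 21 libraries, the level of a tested member and the mean of the other members had a median Pearson r of 0.63 (-0.30 to 0.95), with 9 of 77 below 0. After the group means were taken off, the median was 0.66, with 4 below 0. All members come from the same libraries and scaling, so these values describe these libraries and carry no test.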
